A study of Mus musculus with 2 samples.

Results

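The neutrophils of a dissociated mouse brain suspension were 136 cell barcodes of 11312 that passed quality limits, 75 of 5333 in a library named Fit2-WT and 61 of 5979 in a library named Fit2-Mut. A barcode marks 1 droplet, and each captured RNA molecule in it is counted once as a UMI (unique molecular identifier). A barcode was kept with at least 1000 UMIs, at least 500 genes and at most 10% mitochondrial UMIs. It was called a neutrophil when S100a8 and S100a9 together made up at least 0.5% of its UMIs, when Retnlg, Cxcr2, Csf3r, Mmp9 and Ly6g summed to at least 2 UMIs, when the lymphocyte genes Cd3e, Cd3d, Cd3g and Cd79a summed to at most 1 UMI, and when the microglial genes P2ry12, Siglech and Fcrls summed to at most 2 UMIs. The members were therefore chosen by their own RNA, so the levels of these genes describe the members and test nothing.

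Both libraries came from whole brains of 6-month-old mice carrying an APP knock-in (APP-KI), a model of Alzheimer's disease in which the endogenous amyloid precursor gene carries disease mutations. One genotype is Fit2-WT and the other Fit2-Mut, and the study disrupted Fit2 in macrophages. The labels do not give the number of animals in a suspension, what limits the disruption to macrophages, which stretch of the gene is altered, or whether the brains were perfused, so blood neutrophils and neutrophils within brain tissue cannot be told apart here. With 1 library per genotype there is no replicate spread and no test: every interval below is an exact 95% interval that covers counting error only and treats UMIs as independent. Fold changes are Fit2-Mut over Fit2-WT.

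Neutrophils are short-lived granulocytes made in the bone marrow and released into the blood. They carry antimicrobial proteins in granules that are filled in sequence during maturation, leave the marrow under the control of the receptors Cxcr2 and Cxcr4, follow chemokines, complement fragments and formyl peptides to a site of injury, and kill microbes with proteases, oxidants and extruded chromatin traps. In mouse models of Alzheimer's disease they are known as a rare population that can adhere to brain capillaries and enter the tissue.

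The granulocyte genes are controlled in the marrow by C/EBP factors and PU.1, and the upstream sequences of 4 genes that mark these barcodes, S100a8, S100a9, Retnlg and Csf3r, and of Il1b, the cytokine gene that is low in the granule-rich barcodes described below, are shown for that reason. Each is the 250 bases before the annotated start, from RefSeq on GRCm38.p6, written 5′ to 3′ on the strand of the gene. S100a8 lies at chr3:90668821-90669070 on the plus strand, S100a9 at chr3:90695722-90695971 on the minus strand, Retnlg at chr16:48872358-48872607 on the plus strand, Csf3r at chr4:126024409-126024658 on the plus strand and Il1b at chr2:129371140-129371389 on the minus strand. Capitals mark matches to TTNNGNAA, a core of the C/EBP site, on either strand.
S100a8: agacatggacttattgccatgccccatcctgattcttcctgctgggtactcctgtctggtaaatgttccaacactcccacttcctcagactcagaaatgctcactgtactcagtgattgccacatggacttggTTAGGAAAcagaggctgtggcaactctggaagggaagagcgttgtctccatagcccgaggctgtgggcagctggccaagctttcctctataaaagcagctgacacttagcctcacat
S100a9: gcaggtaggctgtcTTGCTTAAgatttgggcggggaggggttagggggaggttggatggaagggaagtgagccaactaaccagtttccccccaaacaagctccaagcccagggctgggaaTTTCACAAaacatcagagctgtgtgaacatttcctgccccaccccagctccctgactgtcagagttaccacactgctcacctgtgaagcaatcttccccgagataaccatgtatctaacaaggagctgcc
Retnlg: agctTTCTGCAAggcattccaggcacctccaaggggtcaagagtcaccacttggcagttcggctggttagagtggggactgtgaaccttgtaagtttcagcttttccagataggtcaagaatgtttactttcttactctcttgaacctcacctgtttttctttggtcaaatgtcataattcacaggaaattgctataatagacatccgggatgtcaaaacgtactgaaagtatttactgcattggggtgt
Csf3r: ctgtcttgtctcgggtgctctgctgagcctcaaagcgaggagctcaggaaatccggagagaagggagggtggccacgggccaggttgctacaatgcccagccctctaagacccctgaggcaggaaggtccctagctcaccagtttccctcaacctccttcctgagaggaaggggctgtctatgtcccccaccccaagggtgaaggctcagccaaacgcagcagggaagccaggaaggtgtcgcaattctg
Il1b: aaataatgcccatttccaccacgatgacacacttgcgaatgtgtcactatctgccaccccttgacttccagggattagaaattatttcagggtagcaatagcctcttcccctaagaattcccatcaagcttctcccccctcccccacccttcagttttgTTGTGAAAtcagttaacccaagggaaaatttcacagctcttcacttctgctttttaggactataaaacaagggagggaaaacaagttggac
S100a9 holds 2 such matches, S100a8, Retnlg and Il1b hold 1 each and Csf3r holds 0. The letters GAGGAA, a PU.1 core searched on both strands, occur at 2 places upstream of S100a8 and at 1 upstream of Csf3r. Of the 20 genes with the highest neutrophil level relative to all other kept barcodes, 16 matched the RefSeq table and 4, Mirt2, Wfdc21, Arg2 and Mmp9, did not. TTNNGNAA occurred in 12 of those 16 sequences (75%) and in 36.8% of all 32851 promoters of the same length. GAGGAA occurred in 9 of the 16 (56.2%) and in 23.3% of all promoters, and in the 16 no match of one motif overlapped a match of the other. A match is a description of the letters and not a binding site.

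Fitm2, the gene that encodes FIT2 (fat storage-inducing transmembrane protein 2), was at the limit of detection in neutrophils. The 75 neutrophils of Fit2-WT held 3 Fitm2 UMIs, a level of 9.42 CPM (the CPM scale, a gene's UMIs relative to all neutrophil UMIs of the library; interval 1.94 to 27.5), and the 61 of Fit2-Mut held 0, where 3 UMIs would be 10.5 CPM. The 3 UMIs sat in 2 barcodes that held 26 and 21 UMIs of astrocyte markers. Both were deep, at 11418 and 21248 UMIs against a median of 3252. The cell source of the 3 UMIs was not tested. Free RNA, measured in barcodes with 10 to 100 UMIs, held Fitm2 at 6.56 and 10.0 CPM, so a loss of Fitm2 was not detectable in neutrophils at this depth. Its paralog Fitm1 had 0 UMIs in neutrophils of both libraries. A 3′ tag can also lie outside the altered stretch of the gene, and then it does not check the genotype.

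Neutrophils made up 1.41% of kept barcodes in Fit2-WT (interval 1.11% to 1.76%) and 1.02% in Fit2-Mut (0.781% to 1.31%). The ratio of the shares was 0.725, and its interval, 0.509 to 1.03, includes 1. Barcodes that met a monocyte rule (at least 4 UMIs of Ccr2, Ly6c2, Ace, Treml4, Ms4a6c and Plac8, without the S100 share) made up 1.29% and 0.803%, a ratio of 0.620 (0.420 to 0.910). Neutrophils per monocyte-like barcode therefore had a ratio of 1.17 (0.820 to 1.66). Endothelial-like barcodes, chosen by Cldn5, Flt1 and Ly6c1, were 8.48% and 6.19% of the suspensions (ratio 0.730, 0.635 to 0.840), and microglia-like barcodes 9.81% and 9.60% (0.979). The lower neutrophil share thus went with lower shares of monocyte-like and endothelial-like barcodes in the same library. With 1 suspension per genotype, a difference between genotypes and one between suspensions cannot be told apart.

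Neutrophil barcodes were shallower than most. The median was 3252 UMIs and 1206 genes for Fit2-WT and 3145 UMIs and 1149 genes for Fit2-Mut, against 6912 and 7527 UMIs over all kept barcodes. Summed over the members, 318558 and 284561 UMIs stand behind the levels below. The mitochondrial share was low, with medians of 0.236% and 0.386% in neutrophils, 1.43% and 1.37% in monocyte-like barcodes and 2.39% and 2.67% over all kept barcodes. No barcode name was shared between the neutrophils of the libraries.

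The lowest share of S100a8 plus S100a9 inside the rule was 0.842% of UMIs for Fit2-WT and 0.539% for Fit2-Mut, with medians of 13.3% and 11.1% and highest values of 41.9% and 37.2%. Outside it, 22 and 30 barcodes met every other criterion, and the highest share among them was 0 in Fit2-WT and 0.305% in Fit2-Mut. The highest share in any monocyte-like barcode was 0.0310% and 0.0120%, in any endothelial-like barcode 0.0349% and 0.0503%, and in any microglia-like barcode 0.0341% and 6.23%. These types left out the members, and the monocyte rule also asked for a share under 0.5%. The maxima are thus limited by definition and describe no separation. The lowest marker sum of a member was 9 UMIs (Fit2-WT) and 6 UMIs (Fit2-Mut), above the 2 that the rule asks. Of Fit2-Mut barcodes, 3 with S100 shares of 6.23%, 3.0% and 9.47% stayed outside because they held 126, 24 and 3 UMIs of the microglial genes.

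**Figure D1:**
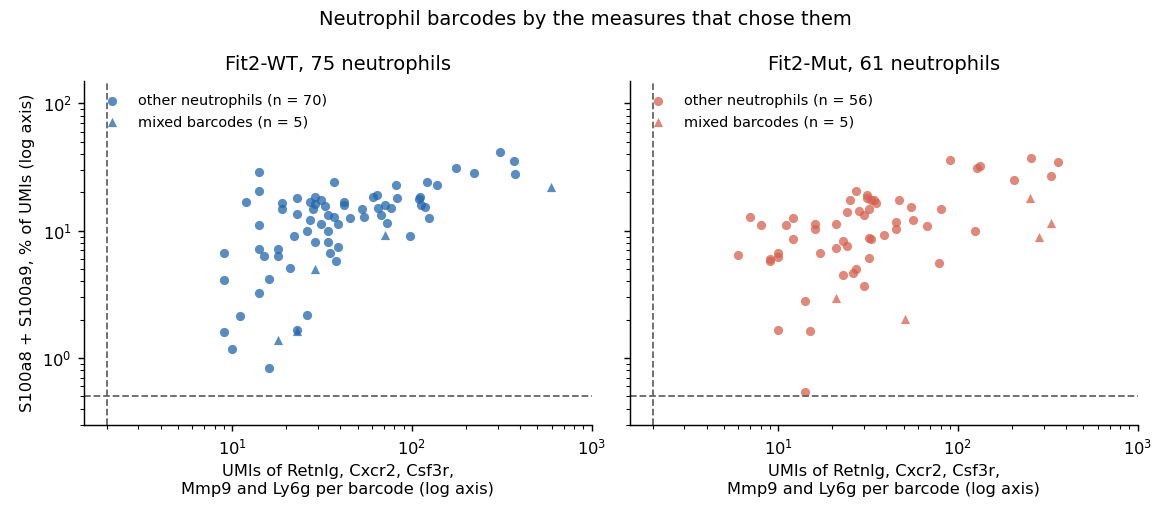
Each point is 1 neutrophil barcode, with the UMIs of Retnlg, Cxcr2, Csf3r, Mmp9 and Ly6g on the x axis and the percent of UMIs from S100a8 and S100a9 on the y axis (both log axes), Fit2-WT at left and Fit2-Mut at right. Dashed lines are the limits of the rule (2 UMIs, 0.5%), and triangles are barcodes that also carry at least 20 UMIs of another cell type's markers. Members range from 0.842% to 41.9% in Fit2-WT and from 0.539% to 37.2% in Fit2-Mut.

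The RNA of the members carried the defining genes of neutrophils. Apart from the genes used to choose them, the 20 genes highest in neutrophils relative to the other kept barcodes included the stefin Stfa2l1, the cytokine Il1f9, the itaconate enzyme Acod1, the retinol dehydrogenase Dhrs9, the lectin receptor Clec4d, the activating receptor Trem1, the arginase Arg2, the collagenase Mmp8, the decoy receptor Il1r2 and the iron-binding lipocalin Lcn2. Cxcr2 was seen in 71 of 75 and 52 of 61 neutrophils, and Csf3r, the receptor for granulocyte colony-stimulating factor, in 75 of 75 and 60 of 61. After thinning each barcode to 1000 UMIs, Cxcr2 was left in 62.7% and 52.5% of neutrophils and in 0% of endothelial-like barcodes, a type that should lack it (median depth before thinning 3987 and 4097 UMIs). Both genes are among those that chose the members, so their detection describes the barcodes and supports nothing. Of the markers of other blood cells, none of 5 platelet genes and none of 6 basophil and mast cell genes had a UMI, and only 2 of 9 T and NK cell genes, 2 of 5 eosinophil genes and 2 of 6 dendritic cell genes had any. The eosinophil gene Epx and the T cell genes Cd3e and Trbc2 were at 0 in both libraries. Monocyte markers had 0.053% of neutrophil UMIs in each library, and microglial markers had 0.279% and 0.263%, under the 0.645% of free RNA in Fit2-WT. The rule itself capped Cd3e, Cd3d, Cd3g and Cd79a at 1 UMI and P2ry12, Siglech and Fcrls at 2. Low counts of lymphocyte and microglial markers are thus in part set by the choice of members and test nothing.

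Some members held RNA of a second cell type. With at least 20 UMIs of a marker list of a brain cell type or of erythrocytes as the limit, chosen after the data were seen, 5 barcodes of each library were mixed, and they held 20.2% of neutrophil UMIs of Fit2-WT and 29.99% of those of Fit2-Mut. The 5 of Fit2-WT carried astrocyte genes, at 21 to 76 UMIs. In Fit2-Mut, 2 carried choroid plexus RNA, with 27.4% and 15.0% of their UMIs from the transthyretin gene Ttr, 1 had 30.8% haemoglobin UMIs, 1 had 20 erythrocyte UMIs and 1 had 22 astrocyte UMIs. Scrublet, a doublet caller, marked 4 and 2 members, of which 3 and 1 were mixed. Ttr reached 800 and 29516 CPM in neutrophils, a ratio of 36.9 that was 1.05 without the mixed barcodes, and the haemoglobin gene Hbb-bs reached 22 and 9678 CPM, which became 23.6 and 55.2 CPM without them (ratio 2.34, 0.793 to 7.70). Whether these droplets held a pair of cells or one cell with adhering RNA cannot be told apart. The limit is a count, so a deep barcode reaches it more easily. Mixed barcodes held from 7605 to 21627 UMIs, against neutrophil medians of 3252 and 3145. Leaving them out thus also leaves out deep barcodes, and the effects of depth and of a second cell type cannot be told apart. For named genes and for gene lists, values without the mixed barcodes (70 and 56 left) are given where a ratio crosses 1.5-fold or a list's count changes.

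Over the 3922 genes with at least 20 neutrophil UMIs in both libraries together, 468 were at least 1.5-fold higher in Fit2-Mut (11.9%) and 633 at least 1.5-fold lower (16.1%), with a median log2 ratio of -0.06 and a range from -1.09 to 0.97 between the 5th and 95th percentile. The counting interval excluded 1 for 189 of the 468 and 232 of the 633, and the rest lie within counting error. Scaled by TMM in place of the total, 586 were higher and 490 lower, and the median was 0.04. Without the mixed barcodes, 398 of 2905 genes were higher (13.7%) and 331 lower (11.4%), and the median was -0.00. Higher and lower below mean a ratio past 1.5-fold, counts in a gene list are read against these shares and list medians against -0.06. TMM adds 0.1 to every log2 ratio, so list medians from -0.09 to -0.01 turn positive under it.

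The alarmins came first by role. S100a8 and S100a9 form calprotectin, the zinc- and manganese-binding protein of the neutrophil cytosol. S100a8 stood at 56071 CPM in neutrophils of Fit2-WT and at 48896 in those of Fit2-Mut (ratio 0.872, 0.853 to 0.892), and S100a9 at 78416 and 71296 (0.909, 0.892 to 0.926). These genes chose the members, as did Retnlg, Cxcr2, Csf3r, Mmp9 and Ly6g, so their ratios here and below are descriptions only. With free RNA subtracted from all members the ratios of S100a8 and S100a9 turned to 1.41 and 1.47. Ttr in 2 Fit2-Mut barcodes set that estimate, at 64.1% free RNA in Fit2-Mut against 2.08% without the mixed barcodes. Without the mixed barcodes, the median log2 ratio of the S100 list was -0.19 both with and without the subtraction. Among single barcodes the 2 genes went together, with a Spearman correlation of 0.931 over 75 barcodes and 0.914 over 61, a description that shares each barcode's depth. The sum exceeded 20% of UMIs in 12 and 8 barcodes and was under 5% in 12 and 10. Of 8 listed S100 genes 6 could be compared, with 0 higher, 0 lower and a median log2 ratio of -0.22, and 0 of the 6 had a ratio above 1. Without the mixed barcodes 1 was lower (S100a13, 0.595). Retnlg, a secreted resistin-like protein of neutrophils, had 12205 and 10135 CPM (0.830, 0.791 to 0.872), and was seen in 73 and 59 barcodes with medians of 0.60% and 0.357% of UMIs.

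Granule genes split into a large common set and a small set carried by few barcodes. Genes of primary granules, which are made at the promyelocyte stage, were mostly not detected. Mpo, Elane, Prtn3 and Ctsg had 0 UMIs in both libraries, where 3 UMIs would be 9.42 and 10.5 CPM. Of 7 such genes in the data, 5 had 0 UMIs, and the list summed to 15 and 12 UMIs. The 1 with enough UMIs to compare was neither higher nor lower. Lcn2 was at 1736 and 1743 CPM (ratio 1.0), Mmp8 at 574 and 608 (1.06) and Mmp9, the gelatinase of tertiary granules, at 819 and 903 (1.10, 0.924 to 1.31). The levels of Lcn2 and Mmp8 differed between the libraries by less than counting error. Lyz2, the lysozyme of myeloid granules, was at 4423 and 4705 CPM (1.06), Pglyrp1, a peptidoglycan-binding protein, at 1406 and 1328 (0.945), and Hp, haptoglobin, at 2153 and 1740 (0.808). Wfdc21, a small whey acidic protein, was at 1011 and 1226 CPM (1.21). Of 7 tertiary granule and secretory vesicle genes compared, 0 were higher and 0 lower (median 0.14).

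The exceptions among the granule genes were the cathelicidin family and lactoferrin. Ngp, neutrophilic granule protein, was at 609 CPM in the Fit2-WT and 1971 in the Fit2-Mut library (ratio 3.24, 2.74 to 3.83), Camp, the cathelicidin precursor, at 386 and 1943 (5.03, 4.13 to 6.17), and Ltf, lactoferrin, at 173 and 573 (3.32, 2.43 to 4.59). Few barcodes made up these sums: Ngp was seen in 7 of 75 and 10 of 61, Camp in 5 and 4, and Ltf in 4 and 3. A single Fit2-Mut barcode held 64.9% of the Ngp UMIs there. Without the members that Scrublet called, that barcode among them, the ratios of Ngp, Ltf and Camp were 1.12, 1.33 and 0.911, and that of Lcn2 was 0.653. Without only the top barcode of each library Ngp was at 1.60 and Camp at 1.22. Chil3, a chitinase-like lectin of young granulocytes, had 8 and 35 UMIs, 97.1% of the latter in 1 barcode, and Olfm4, a secondary granule protein of a neutrophil subset, had 12 and 28 UMIs (2.61). These 5 genes are the higher ones among 13 secondary granule genes compared, of which 0 were lower (median 0.09).

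Barcodes with at least 10 UMIs of Ngp, Camp and Ltf together were therefore described apart. The limit was set after the data were seen, so it cuts a range and defines no cell type: 1 and 2 barcodes lay between 5 and 20 UMIs, and 66 and 51 had 0. Granule-rich barcodes were 6 of 75 in Fit2-WT (8%, 2.99% to 16.6%) and 5 of 61 in Fit2-Mut (8.2%, 2.72% to 18.1%). The shares of such barcodes differed by less than counting error. The sums were 372 and 1277 UMIs, and 1 Fit2-Mut barcode held 913 of the 1277 (71.5%), 11.04% of its 8269 UMIs. Granule-rich barcodes were deep, with medians of 8578 and 8269 UMIs against 3140 and 2866 in the rest. Thinned to 1000 UMIs, 8 and 5 barcodes kept a UMI of the 3 genes. Without the top barcode of each library the summed level was 817 and 1317 CPM, against 1168 and 4488 with it.

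**Figure D2:**
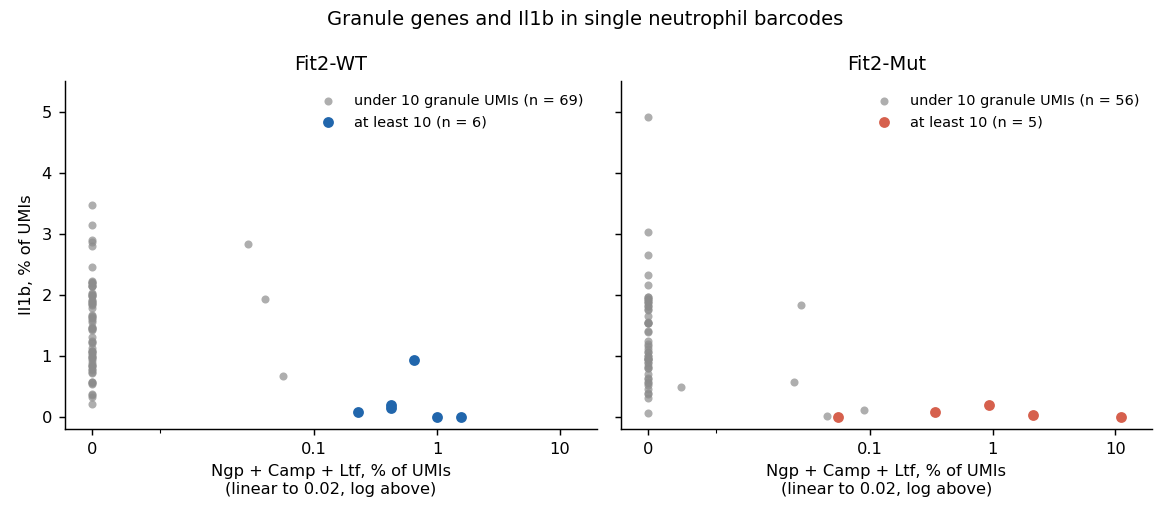
Each point is 1 neutrophil barcode, with the percent of its UMIs from Ngp, Camp and Ltf on the x axis and from Il1b on the y axis, for Fit2-WT and Fit2-Mut. Barcodes rich in granule transcripts lie low in Il1b, at no more than 0.938% of UMIs for Fit2-WT and 0.191% for Fit2-Mut.

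Granule-rich barcodes were high in the other genes of granules and low in Il1b and several receptor genes, while Cxcl2 did not follow in both libraries. The median Lcn2 level was 5489 CPM in the 6 granule-rich barcodes and 515 in the 69 others of Fit2-WT, and 4195 and 381 in Fit2-Mut. For Mmp8 the medians were 2137 and 0 in Fit2-WT barcodes, and 2246 and 0 in Fit2-Mut barcodes. Anxa1, annexin A1, had medians of 1409 and 334 CPM, and of 2246 and 368, in the same order. Cd177, a surface partner of the protease PR3, had 500 and 0 CPM, and 561 and 0. Retnlg followed, with medians of 31478 and 5238 CPM, and of 19136 and 2879. The membrane gene Ifitm6 had 1637 and 0 CPM, and 936 and 0. In summed counts Ly6g, the antigen by which mouse neutrophils are sorted, had 280 CPM in granule-rich and 33.96 in other barcodes of Fit2-WT, and 369 and 120 in Fit2-Mut.

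The opposite held for Csf3r, at medians of 152 (granule-rich) and 2258 CPM (others) in Fit2-WT, with 242 and 2635 for Fit2-Mut. Il1b had 1133 and 14552 CPM, and 334 and 10965. Il1r2 had 507 and 1924 CPM, and 0 and 2055, with a summed level of 291 CPM in the granule-rich barcodes of Fit2-Mut. Ccl6, a myeloid CC chemokine, had 156 and 2281 CPM, and 334 and 2226, and Srgn, the proteoglycan serglycin, 2699 and 7194, and 1494 and 7523. The order was the same in both libraries for each of these genes. It was not for Cxcl2, whose medians were 759 and 401 CPM for Fit2-WT but 0 and 260 for Fit2-Mut, with summed levels of 1849 and 1857 CPM against 233 and 1734. For Fos the order depended on the measure. Its medians were lower in granule-rich barcodes of both libraries, at 1399 and 2965 CPM for Fit2-WT and 636 and 2382 for Fit2-Mut. Its Fit2-WT sums gave 3454 and 3030 CPM, while Fit2-Mut sums gave 679 and 2171. In single barcodes the highest Il1b share in a granule-rich one was 0.938% in Fit2-WT, and 18 of the 69 others lay at or under it. In Fit2-Mut the highest was 0.191%, with 3 of 56 others at or under it. The groups thus overlapped. The cycling genes Mki67 and Top2a had 0 UMIs in granule-rich barcodes of both libraries. Mixed barcodes numbered 1 of 6 and 2 of 5 among the granule-rich.

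**Figure D3:**
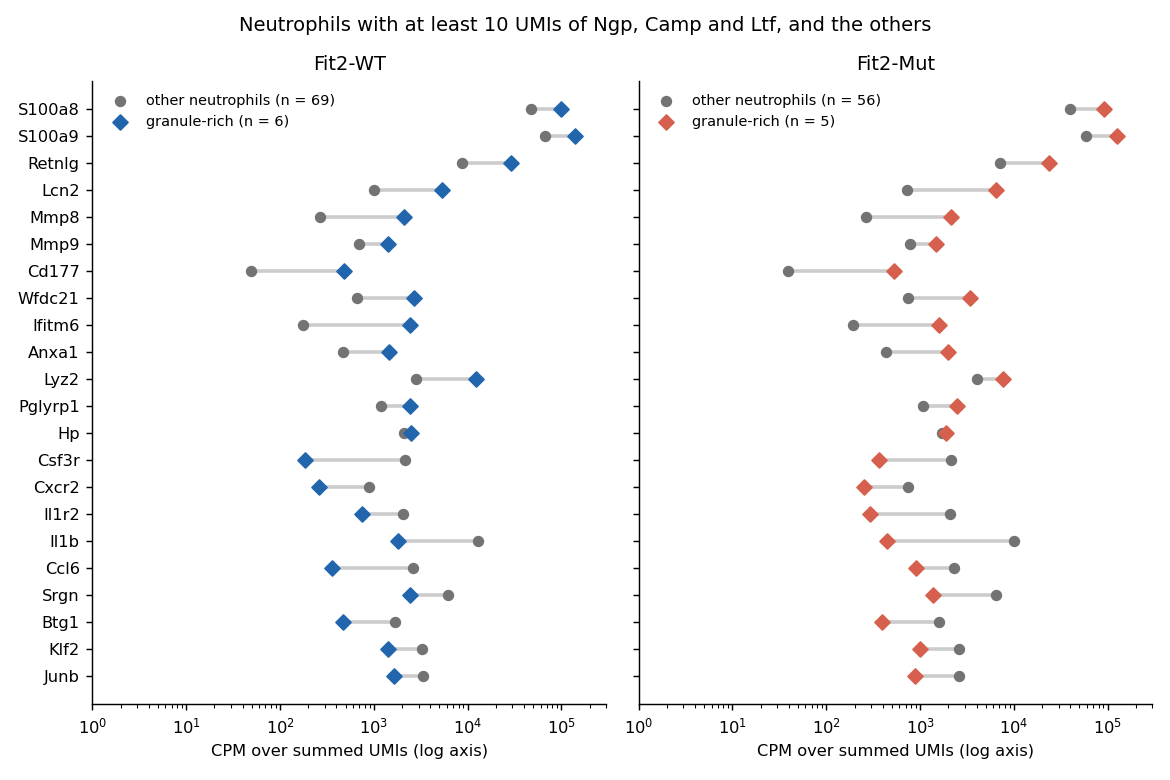
CPM on a log axis over summed UMIs of the granule-rich neutrophils (diamonds, n = 6 in Fit2-WT at left and 5 in Fit2-Mut at right) and of the other neutrophils (grey circles, n = 69 and 56), for 22 genes. Genes from S100a8 down to Pglyrp1 lie higher in granule-rich barcodes, Hp lies close in both, and genes from Csf3r down lie lower, in both libraries.

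Across all members, Mmp8 went with Retnlg (Spearman correlation 0.583 over 75 barcodes and 0.543 over 61), and Srgn went with Il1b (0.595 and 0.507). Thinned to 1000 UMIs the values were 0.427 and 0.445 for the former and 0.455 and 0.505 for the latter. They are descriptions of cells that share a library and a depth range, from 13 gene pairs examined.

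The chemotactic receptors compared stayed within 1.5-fold between the libraries, though most lay lower in Fit2-Mut. Csf3r was at 1836 and 1813 CPM (ratio 0.987, 0.875 to 1.11), Cxcr2, the receptor for CXCL1 and CXCL2, at 782 and 654 (0.836, 0.688 to 1.02) and Cxcr4, which retains neutrophils in marrow and marks aged ones, at 220 and 204 (0.928). C5ar1, the receptor for complement C5a, was at 829 and 678 CPM (0.818, 0.676 to 0.989), Ccr1, a chemokine receptor, at 628 and 471 (0.75, 0.598 to 0.938), Il1r2 at 1843 and 1750 (0.950) and the formyl peptide receptor Fpr1 at 213 and 169. Of 24 chemotactic and cytokine receptors compared, 0 were higher and 0 lower, their median was -0.26, and 3 had ratios above 1. Of 21 adhesion and migration genes, again 0 were higher and 0 lower (median -0.08). Cd44, the hyaluronan receptor, was at 870 and 1096 (1.26, 1.07 to 1.49). Coro1a, an actin-binding coronin, was at 1378 and 1065 CPM (0.773), and Rac2, the GTPase of haematopoietic cells, at 826 and 636 (0.770).

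**Figure D4:**
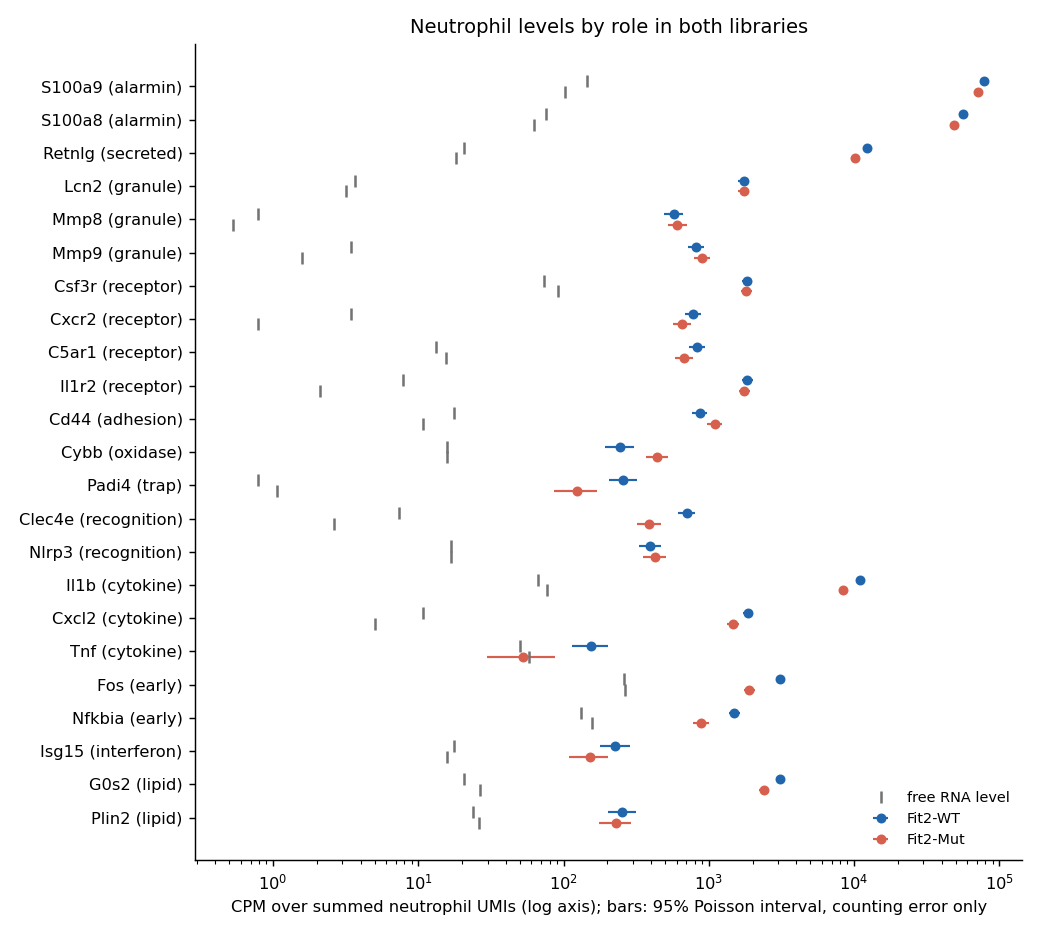
Summed neutrophil levels of genes in Fit2-WT (blue) and Fit2-Mut (red) in CPM on a log axis, with exact 95% Poisson intervals for counting error, ordered by role. Grey ticks give each gene's level in free RNA of the same library. Clec4e, Padi4, Fos and Nfkbia lie lower and Cybb higher in Fit2-Mut, and Tnf in Fit2-Mut lies at the level of free RNA.

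Most cytokine genes compared stayed within 1.5-fold between the libraries, though more lay lower than higher in Fit2-Mut. Il1b encodes interleukin-1 beta, which is processed by the inflammasome. It was at 10912 CPM in the Fit2-WT neutrophils and at 8350 in the Fit2-Mut neutrophils (ratio 0.765, 0.726 to 0.806, and 0.854 without the mixed barcodes). It was seen in 73 of 75 and 59 of 61 neutrophils. Per barcode its share ran from 0 through a median of 1.42% to 3.47% in Fit2-WT, and from 0 through 1.0% to 4.91% in Fit2-Mut, so the ranges overlapped. Monocyte-like barcodes held 485 and 534 CPM. Cxcl2, the chemokine that recruits further neutrophils through Cxcr2, was at 1855 and 1462 CPM (0.788) in 45 and 32 barcodes, Ccl6 at 2238 and 2070, and Osm, oncostatin M, at 392 and 330. Tnf was at 154 and 52.7 CPM from 49 and 15 UMIs (0.343, 0.178 to 0.621), and its Fit2-Mut level lay near the 57.9 CPM of free RNA. Ccl3 and Ccl4, chemokines for monocytes and lymphocytes, stayed under free RNA throughout. Of 13 cytokines and chemokines compared, 1 was higher (Ccl3, ratio 2.84) and 3 lower (Tnf, Ccl4 and Tgfb1), with a median of -0.27. Without the mixed barcodes 4 were lower, the fourth being Mif (0.388).

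Immediate early genes, which respond within minutes to stimulation and also to tissue dissociation, were lower in part. Fos, the AP-1 subunit, was at 3101 CPM for Fit2-WT against 1901 for Fit2-Mut (ratio 0.613, 0.551 to 0.681), seen in 75 of 75 and 60 of 61 barcodes. It passed 1.5-fold with or without the mixed barcodes but not with barcodes weighted equally (0.717) or without the 5 deepest of each library (0.707). Nfkbia, the inhibitor of NF-kappa-B, was at 1497 and 886 CPM (0.591, 0.506 to 0.690), and Atf3, a stress-induced factor, at 568 and 271 (0.476, 0.360 to 0.625), where free RNA held 376 and 348. Junb, another AP-1 subunit, was at 3064 and 2312 CPM (0.755), Zfp36, which destabilises cytokine mRNA, at 1557 and 1121 (0.720), and Dusp1, a phosphatase of MAP kinases, at 1447 and 1276 (0.881). The values of Fosb ran the other way, at 166 and 250 CPM (1.5, 1.04 to 2.18, and 1.58 without the mixed barcodes). Of 21 compared, 0 were higher and 4 lower, the median was -0.27, and 2 had ratios above 1. The 4 of 21 lie close to the 16.1% of all genes. Without the mixed barcodes 1 was higher (Fosb) and 5 lower, Jun (0.529) in addition, where 11.4% of all genes were lower.

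Pattern recognition genes were 2 higher and 1 lower of 17 (median 0.21), and 12 of the 17 had ratios above 1. Without the mixed barcodes 4 were higher and 1 lower of 16, where 13.7% of all genes were higher. Those higher with all members were Tlr4, the receptor for lipopolysaccharide (1.79), and Casp1, the inflammasome protease (1.68), and those without the mixed barcodes were Tlr4 (2.23), Tlr2 (1.73), Myd88 (1.56) and Acod1. The intervals of Tlr4, Casp1, Tlr2 and Myd88 include 1. Clec4e, the receptor Mincle for mycobacterial and dead-cell glycolipids, was the lower one, at 703 and 390 CPM (0.555, 0.438 to 0.700) in 61 of 75 and 41 of 61 barcodes. Its neighbour in function Clec4d was at 731 and 633 CPM, and Nlrp3, the inflammasome sensor, at 396 and 425. Acod1, which makes itaconate, was at 625 and 826 CPM (1.32, 1.09 to 1.60), and 1.54 without the mixed barcodes. Pirb, an inhibitory receptor for MHC class I, was at 396 and 214 CPM (0.542, 0.392 to 0.741), the 1 lower gene of 18 inhibitory and paired receptors (0 higher, median -0.07). Of 7 Fc and complement receptors 0 were higher and 0 lower (1 lower without the mixed barcodes, Cr1l at 0.638), with Fcer1g, the shared signalling chain, at 2320 and 2094 CPM (0.903).

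The oxidase genes had a list median of -0.01 and the trap genes one of -0.38, or -0.43 without the mixed barcodes. Ncf1, a cytosolic subunit of the NADPH oxidase, was at 405 and 390 CPM. Cyba, the smaller membrane subunit, was at 1296 and 1082 CPM. Cybb, its catalytic partner, was at 245 and 443 CPM (1.81, 1.35 to 2.43), but at a ratio of 1.16 without the mixed barcodes. It was the 1 higher gene of 7, and without those barcodes 0 were higher. Padi4, the peptidylarginine deiminase that opens chromatin for extracellular traps, was at 257 and 123 CPM from 82 and 35 UMIs (0.478, 0.312 to 0.718, and 0.461 without the mixed barcodes). Granule-rich barcodes held 30 and 10 of these UMIs. In the other neutrophils it was at 196 and 107 CPM, seen in 28 of 69 and 21 of 56 barcodes. Free RNA held Padi4 at 0.787 and 1.06 CPM. Rock1, a kinase of actin contraction, was the higher trap gene, at 248 and 408 CPM (1.64, 1.22 to 2.22), with free RNA at 166 and 178. Among 5 trap genes 1 was higher and 1 lower, and Rock1 alone had a ratio above 1.

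Interferon-response genes had a list median of -0.43, with 2 of 16 compared higher and 4 lower (-0.36 without the mixed barcodes, then with 2 higher and 2 lower). Isg15, a ubiquitin-like modifier, was at 226 and 151 CPM (0.669, 0.447 to 0.989, and 0.776 without the mixed barcodes). Isg20, an exonuclease, had 16 and 4 UMIs (0.280), and Rtp4 and Oasl2 had ratios of 0.425 and 0.546. The higher genes were Oasl1 (2.66) and Bst2 (2.99), and Bst2 turned to 0.638 without the mixed barcodes. Ifitm1 and Ifitm2, membrane proteins that block viral entry, were at 1334 and 921 CPM (0.690) and at 2489 and 2073 CPM. The Ifitm genes are close copies, and reads may be split between them.

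With all members, the list medians of metabolic genes lay close to or under the median of all genes, while single genes went both ways. Of 22 hypoxia and glycolysis genes, 0 were higher and 5 lower (median -0.22), among them Hk2, hexokinase 2, with 22 and 6 UMIs (0.305), and Bnip3, a mitophagy receptor, with 27 and 8 UMIs (0.332). Slc2a3, the glucose transporter GLUT3, was at 509 and 562 CPM. Without the mixed barcodes 3 of the list were lower. Lipid droplet and lipolysis genes, the pathway in which FIT2 acts, were 2 higher and 2 lower of 16 (median -0.06, equal to all genes), and 4 higher and 2 lower of 14 without the mixed barcodes. G0s2, the inhibitor of the lipase Pnpla2, was at 3067 and 2397 CPM (0.781, 0.708 to 0.863), Plin2, a coat protein of droplets, at 254 and 228 (0.898), and Dgat1, which makes triglyceride, at 235 and 242. Dgat2, a second such enzyme, had 23 and 8 UMIs (0.389), and Cd36, a fatty acid receptor, 13 and 29 UMIs (2.50) where monocyte-like barcodes held 357 and 319 CPM. In 8 eicosanoid genes 0 were higher and 2 lower (median -0.23), but without the mixed barcodes 1 of 6 was higher and 0 lower (median 0.02). The list held Alox5ap, the helper protein of leukotriene synthesis, at 1391 and 1103 CPM (0.793) and Ptgs2, cyclooxygenase 2, at 474 CPM in both (1.0).

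Mitochondrially encoded genes all passed 1.5-fold in 1 direction. All 11 with enough UMIs were higher in Fit2-Mut, with a median log2 ratio of 0.95, and 1.13 without the mixed barcodes. Cytochrome oxidase subunit mt-Co3 was at 2003 CPM for Fit2-WT against 3641 for Fit2-Mut (1.82, 1.65 to 2.01), mt-Co1 at 1538 and 2537 (1.65), and mt-Nd2, of complex I, at 571 and 1325 (2.32). Few barcodes held most of these UMIs: 5 of each library gave 64.3% and 69.2% of mt-Co3. The median mitochondrial share per barcode was 0.236% and 0.386%, and 9 of 75 and 18 of 61 barcodes reached 1%, of which 5 and 4 were mixed. Free RNA held 4545 and 4335 CPM of mt-Co3 and monocyte-like barcodes 3563 and 3900, so mt-Co3 in neutrophils was below both in each library. With free RNA subtracted from all members the list median was 0.0038, where the median of all genes was -0.68 and Ttr in 2 Fit2-Mut barcodes set the estimate. With free RNA subtracted from the members other than the mixed ones it was 1.19, without the members called by Scrublet it was 1.77, and without the 5 deepest barcodes of each library 0.65.

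Survival genes had 3 higher and 1 lower of 17 (median 0.08), and 2 higher and 1 lower of 13 without the mixed barcodes. Mcl1, on which neutrophil survival depends, was at 1909 and 1631 CPM. The higher genes were Xiap, with 6 and 17 UMIs (3.17), and Bcl2a1b and Bcl2a1d (2.39 and 2.49), near-identical copies whose reads may be split between them. Granulocyte transcription factors were 1 higher and 1 lower of 19 (median -0.25), and 1 higher and 3 lower of 16 without the mixed barcodes (median -0.09). Spi1, which encodes PU.1, was at 1045 and 942 CPM, Cebpb at 1413 and 1191, Cebpd at 524 and 580 and Mxd1, a repressor of late granulocytes, at 1497 and 1423. Cebpe, the factor of granule maturation, had only 12 and 9 UMIs. Of 9 MHC class I genes 1 was higher and 1 lower (median -0.09; 1 higher and 0 lower of 7 without the mixed barcodes), with H2-D1 at 2266 and 2133 CPM (0.941). The class II chaperone Cd74 had 11 and 54 UMIs (5.5), of which 68.5% of the Fit2-Mut ones sat in 1 barcode, and its level stayed under that of free RNA (209 and 230 CPM).

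**Figure D5:**
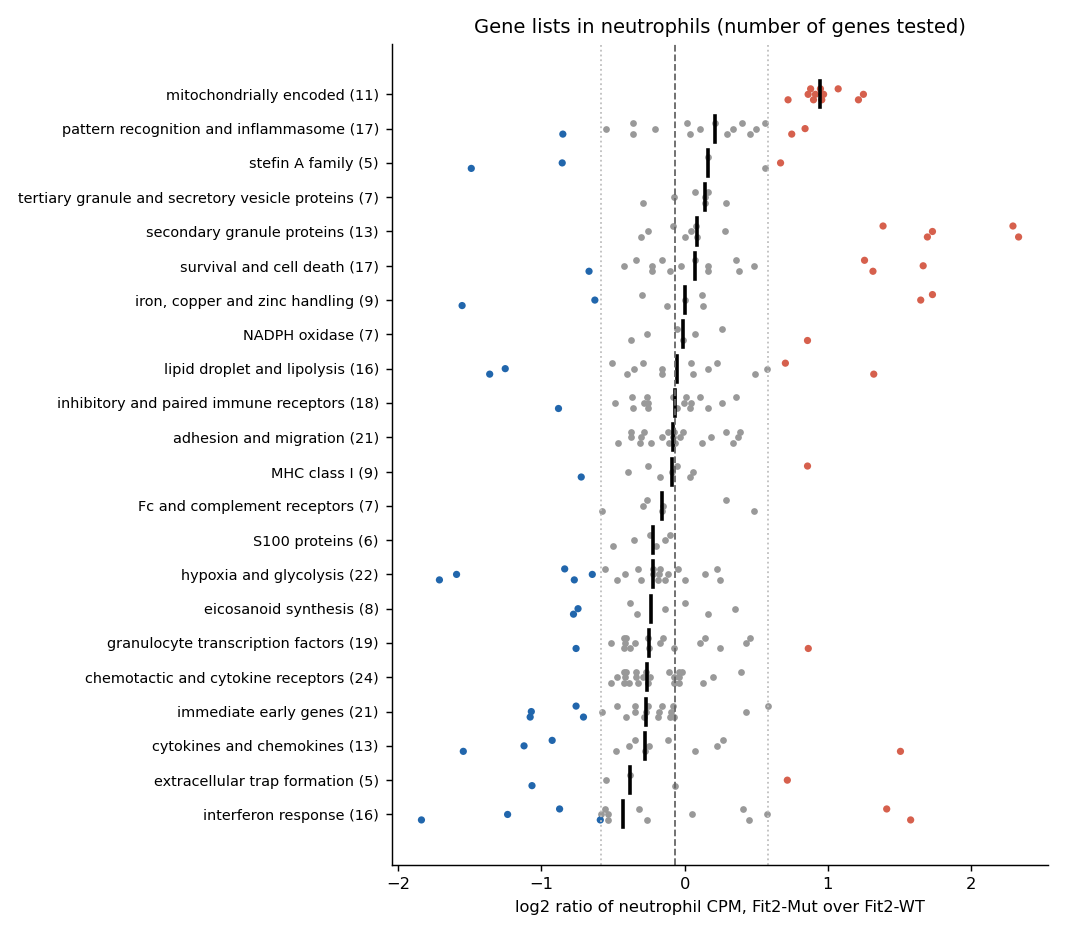
Each point is 1 gene of a list, placed by the log2 ratio of its neutrophil CPM in Fit2-Mut over Fit2-WT, with red and blue for genes past 1.5-fold, grey for the others and a black bar at the list median (number of genes in brackets). Dashed and dotted lines mark the median of all genes (-0.06) and 1.5-fold. All 11 mitochondrially encoded genes lie past 1.5-fold, and the 6 S100 genes all lie left of 0 but within 1.5-fold.

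Single genes that ranked highest and lowest had to pass a fixed rule: at least 1.5-fold, at least 30 UMIs in all, a UMI in at least 10% of neutrophils and a level at or above free RNA, both in the library where the gene is higher, ranked by the bound of the interval nearest to 1. The rule was met by 108 genes on the higher and 197 on the lower side, counts that support nothing, since a gene could pass through 1 library alone. The Fit2-WT levels of Pot1b, Mrtfa, Ccnl2 and Gfpt1 and the Fit2-Mut levels of Nnat, Rnf19a, Slc9a9, Tnf, Atf3 and Esd lay under free RNA. The 10 highest were Ngp, Cks2, Hmox1, Pot1b, Cybb, Mrtfa, Ccnl2, Gfpt1, Ly6g and Cdkn2d. Cks2, a cyclin-dependent kinase subunit, was at 104 and 281 CPM (2.71, 1.79 to 4.20), and Cdkn2d, the cell cycle inhibitor p19, at 163 and 299 (1.83, 1.28 to 2.64) in 36 of 75 and 41 of 61 barcodes. Both ratios were as large without the mixed barcodes, at 2.80 and 1.89. Cks2 was seen in 20 of 75 and 22 of 61 barcodes, and 5 barcodes of each library held 45.5% and 58.8% of its UMIs. Ly6g, also a gene of the rule that chose the members, was at 75.3 and 165 CPM from 24 and 47 UMIs (2.19, 1.31 to 3.75). Of its UMIs, 58.3% and 63.8% sat in 5 barcodes of each library. Hmox1, haem oxygenase, had a ratio of 3.13 that was 1.4 without the mixed barcodes, 1 of which was rich in haemoglobin. Pot1b, Mrtfa, Ccnl2 and Gfpt1 had ratios of 3.02, 2.71, 2.19 and 2.75, each from fewer than 50 UMIs in a library, and Gfpt1 was at 1.23 after thinning.

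The 10 lowest were Nnat, Plac8, Rnf19a, Slc9a9, Tnf, Atf3, Fos, Stfa2l1, Nfkbia and Esd. Stfa2l1, a stefin that inhibits cysteine proteases, was at 788 and 436 CPM (0.553, 0.442 to 0.688, and 0.335 without the mixed barcodes). It was seen in 26 of 75 and 20 of 61 barcodes, and in none of the granule-rich ones of Fit2-WT against 40 UMIs in those of Fit2-Mut. The stefin A genes are close copies, of 5 compared 1 was higher and 2 lower (3 without the mixed barcodes), and the list median moved from 0.16 to -1.58 without the mixed barcodes. Plac8 was at 226 and 63.3 CPM (0.280), with 93.1% and 83.3% of its UMIs in 5 barcodes, and its direction turned after thinning (2.46). Nnat, a neuronal transcript, had 396 and 42.2 CPM, with 82.5% of the former in 1 barcode and a ratio of 0.850 without the mixed barcodes. Rnf19a, a ubiquitin ligase, had 26 and 5 UMIs (0.215, and 0.820 after thinning). Slc9a9 was at 217 and 80.8 CPM and Esd at 126 and 45.7 CPM, with free RNA at 187 and 192 CPM and at 70.6 and 76.4 CPM.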

How the data were processed

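The deposited values were raw UMI counts per gene and barcode for 32285 genes, made by the authors with Cell Ranger 7.0.0 on mm10 per the submitters' processing notes, while the file headers name version 7.1.0. The libraries used 10x 3' v3.1 chemistry, per the labels' protocols, and held 52491901 UMIs (Fit2-WT) and 63234140 (Fit2-Mut). Kept barcodes, members and comparison types were found by fixed gene rules in Python 3.11.15 (pandas 2.3.3, scipy 1.17.1), with no clustering. The members and the gene lists were chosen with earlier results of these data known. Counts were summed over members and divided by the summed total (CPM), and genes with at least 20 UMIs in the libraries together were compared. Intervals were exact Poisson for levels, exact conditional for ratios and Clopper-Pearson for shares, at 95%. A count of 0 was read against a floor of 3 UMIs. Doublets were marked with Scrublet in Scanpy 1.11.5 and kept. TMM and median-of-ratios scaling factors came from edgeR 4.0.16 and DESeq2 1.42.0 in R 4.3.3, with no count test. The named genes were the 10 highest and 10 lowest ratios by the bound nearest to 1, after leaving out ribosomal, mitochondrial, haemoglobin, sex-linked and unnamed genes, plus the 20 genes highest over other barcodes and the members' role lists. The ratio and interval code was tested on simulated data. A few genes of the lists are counted in them but not reported here by name.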

Additional observations from a re-analysis of the deposited data

How the results depend on the processing

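No paired analysis was possible because each genotype has 1 library, and for the same reason no replicate could be left out. The neutrophil share ratio of 0.725 stayed between 0.714 and 0.742 over 6 alternatives. A marker sum of at least 3 could change nothing, since the lowest sums of a member were 9 and 6. With at least 500 UMIs the members were 76 and 61, and with an S100 share of at least 1% they were 74 and 60. The alternatives thus left nearly the same members, and the narrow range says little. Among the genes compared, 468 were higher and 633 lower. These became 987 and 1340 with at least 10 UMIs, 126 and 143 with at least 50, 2030 and 2640 with at least 1 in each library, and 178 and 137 after thinning to 1000 UMIs, settings that change how many genes are compared. The lower genes became 328 without the 5 deepest barcodes, 331 without the mixed barcodes, 350 without those and with free RNA subtracted, and 2025 with free RNA subtracted from all members, where Ttr in 2 Fit2-Mut barcodes set the estimate. The median log2 ratio of -0.064 became 0.037 with TMM, -0.043 with median-of-ratios scaling, -0.022 with at least 1 UMI in each library, -0.0014 with barcodes weighted equally, 0.042 after thinning, 0.0055 without the 5 deepest barcodes, -0.021 without Scrublet doublets, -0.68 with free RNA subtracted, -0.0014 without the mixed barcodes and -0.0021 with both of the last changes. Over 15 alternatives, 328 of 356 list medians moved by less than their limit, 28 moved further and 0 called values reversed, with 71 changes of sign in 20 of 25 lists. Of 435 ratios of 29 named genes, 344 stayed, 89 moved and 2 reversed, Plac8 after thinning (2.46) and Camp without Scrublet doublets (0.911). The cause of these moves was not tested. Depth limits the calls: of the 468 and 633 genes, 279 and 401 had a counting interval that includes 1.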

Other observations

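Genes of iron and metal handling, which neutrophils use to withhold iron from microbes, had 2 higher and 2 lower of 9 compared (median log2 ratio 0.01), and 1 higher and 0 lower of 8 without the mixed barcodes. The ferritin chains Fth1 and Ftl1 were at 5255 and 4832 CPM (ratio 0.920, 0.856 to 0.988) and at 4772 and 3883 CPM (0.814, 0.752 to 0.880) in neutrophils of Fit2-WT and Fit2-Mut. Slc7a11, the cystine importer, was at 439 and 285 CPM (0.648, 0.486 to 0.858), and 0.732 without the mixed barcodes. The metallothionein Mt1 was at 217 and 73.8 CPM (0.341), all below free RNA (736 and 824 CPM), and 0.957 without the mixed barcodes.

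Of 21 proliferation genes, 17 had a UMI and 3 had enough to compare, with 0 higher and 0 lower. Wfdc17, a secreted antiprotease chosen for mention after its values were seen, was at 1253 and 777 CPM (0.620, 0.524 to 0.733) in 38 of 75 and 32 of 61 neutrophils, and 0.711 without the mixed barcodes. Slfn4, a myeloid schlafen gene also chosen after its values were seen, was at 170 and 225 CPM (1.33, 0.909 to 1.94), while its relative Slfn1 was at 418 and 278 CPM (0.665, 0.497 to 0.885), and 0.763 without the mixed barcodes.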
